A study of Mus musculus with 4 samples.

Results

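Notch turnover was followed through 9 genes: Fbxw7, Skp2, Itch, Nedd4, Nedd4l, Numb, Numbl, Cdk8 and Ccnc. They were chosen by their symbols from what their proteins do and not by a measured value, though earlier results of these data were known. They had 30 of the 34945 probe sets that name 1 gene, and were 9 of the 18193 genes on the array. Expression was measured on 4 Affymetrix arrays of the mouse thymic lymphoma line T29, a line that the design text calls Ikaros-deficient. All 4 samples were transduced with MigR1-MLER, an inducible dominant-negative Mastermind; 2 were kept for 24 h in ethanol and 2 in 100 nM 4OHT, the tamoxifen metabolite that activates oestrogen receptor fusions. The construct is thus in both groups, and cells lacking it were not analysed here. Whether the 2 samples of a group were separate cultures is not in the labels, and p-values therefore cover only the spread among these samples, perhaps a technical one. T29 is 1 cell line, and a change in RNA per cell cannot be told apart here from a change in the mix of cells.

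Notch is a receptor that is cut after it binds its ligand. The freed intracellular domain enters the nucleus, joins the DNA-binding protein RBPJ, and recruits Mastermind, which switches on target genes. Mastermind also brings in cyclin C and CDK8, which phosphorylate the intracellular domain, and FBXW7, the substrate-binding subunit of an SCF ubiquitin ligase, then recognises it and sends it to the proteasome. FBXW7 is often mutated in T-cell leukaemia, and MYC and cyclin E are other substrates of it. At the membrane, NUMB and ligases of the NEDD4 family such as ITCH act against the receptor by endocytosis and ubiquitination. SKP2, the substrate-binding subunit of another SCF ligase, degrades the cell cycle inhibitor p27 and has been described as a direct target of Notch. The comparison asks whether genes of this machinery respond in their own transcript level when Notch-dependent transcription is blocked.

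None of the 9 genes was called higher or lower with 4OHT (limma, adjusted p under 0.05), and 1 of them, Cdk8, had an unadjusted p under 0.05. Of all 11581 tested genes, 7.47% were called, 3.9% higher and 3.57% lower, and 25.5% had an unadjusted p under 0.05. The 2 groups did not overlap for 3 members, against 56.9% of all tested genes. Cdk8 was apart and lower with 4OHT, as were 30.2% of tested genes, and Numb and Nedd4 were apart and higher, as were 26.7%. The median size of the change, regardless of direction, was 0.16 on the log2 scale for the members and 0.15 for all tested genes. In these same samples all 6 genes of a list of standard Notch targets fell. That list too was chosen with earlier results of these data known. The largest fall was in Dtx1, whose ethanol arrays read 9.41 and 9.43 and whose 4OHT arrays both read 6.01 (10.6-fold, limma adjusted p = 0.000506). Dtx1 and Ptcra kept their call without any 1 array, while Hes1, Il2ra, Notch3 and Nrarp each lost it in at least 1 such fit (highest adjusted p = 0.124, without 4OHT replicate 1, for Nrarp).

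**Figure D1:**
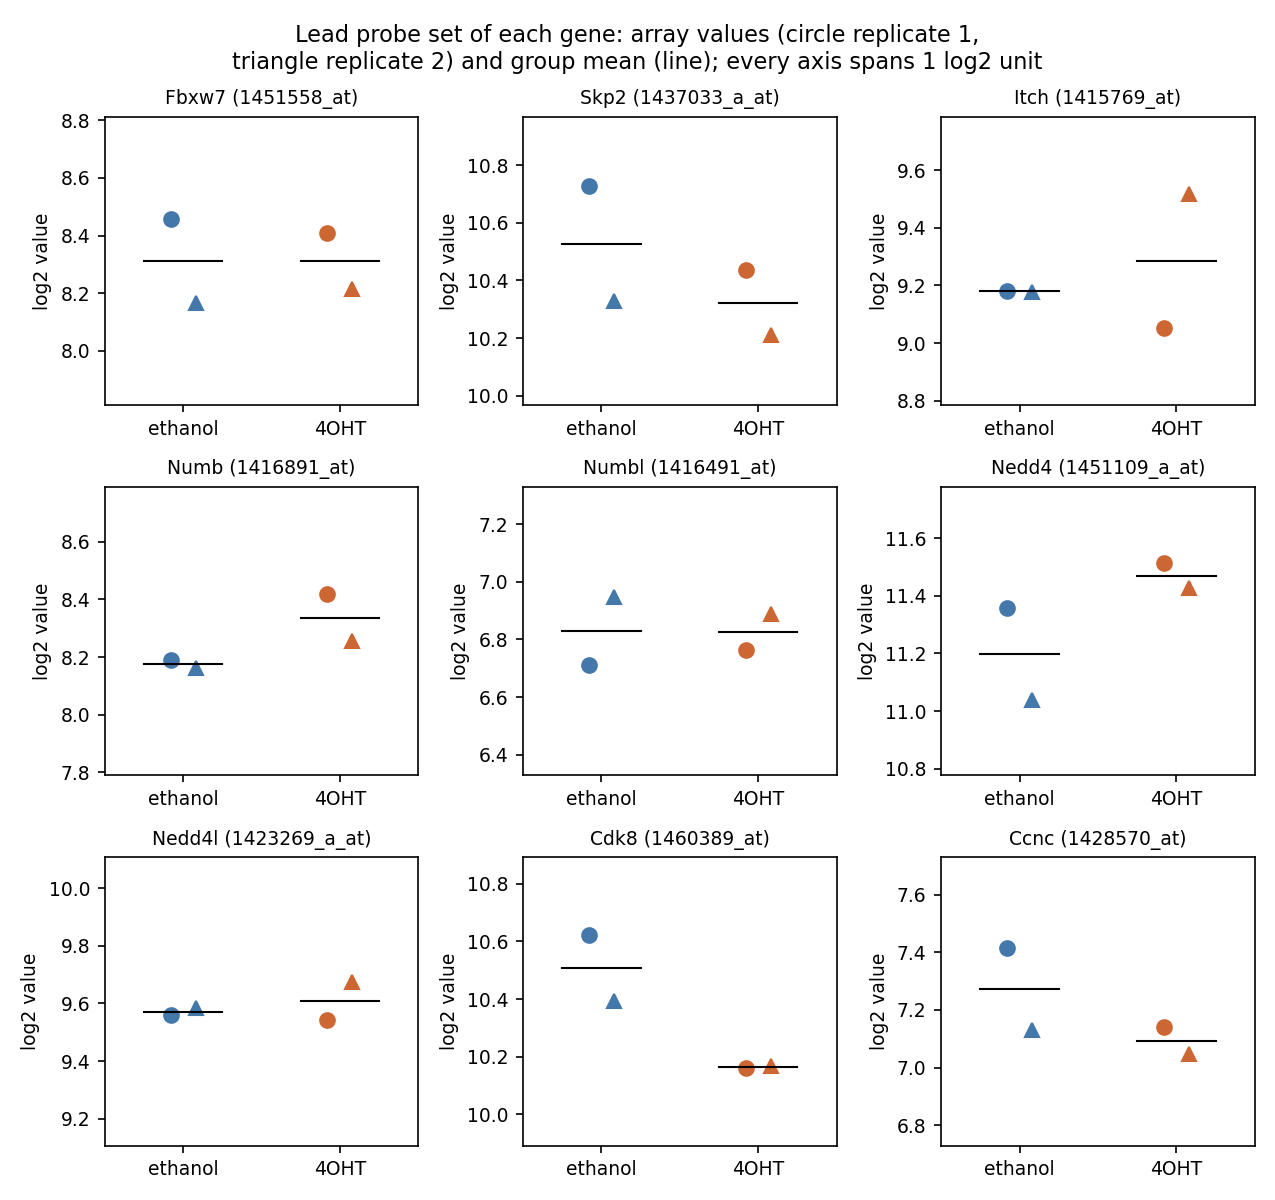
Deposited log2 values of the lead probe set of each of the 9 genes on the 2 ethanol and 2 4OHT arrays, with the group mean as a line; every vertical axis spans 1 log2 unit but starts at a different level. The groups are apart for Numb, Nedd4 and Cdk8 and overlap for the other 6 genes.

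The bases before the start sites are shown for Skp2, the member described as a Notch target, and for Ptcra, the pre-T-cell receptor alpha chain, which fell 4.71-fold here (limma adjusted p = 0.00221). RBPJ binds sites built around the letters TGGGAA. These letters were searched on both strands in the 250 bases before each RefSeq start site of mouse assembly GRCm38.p6. The search kept 13 such windows for 7 of the 9 genes, and none for Itch and Nedd4l. For the members and the readout genes it left out windows on 1 chromosome, so a missing window does not show that RefSeq lacks it. Both Skp2 windows are on the minus strand of chromosome 15, at chr15:9140455-9140704 (the downstream start) and chr15:9155426-9155675 (the upstream start), and the Ptcra window is on the minus strand at chr17:46763713-46763962. Each is written 5′ to 3′ in the direction of its gene, and capitals mark TGGGAA or its reverse complement TTCCCA.
Skp2, downstream start: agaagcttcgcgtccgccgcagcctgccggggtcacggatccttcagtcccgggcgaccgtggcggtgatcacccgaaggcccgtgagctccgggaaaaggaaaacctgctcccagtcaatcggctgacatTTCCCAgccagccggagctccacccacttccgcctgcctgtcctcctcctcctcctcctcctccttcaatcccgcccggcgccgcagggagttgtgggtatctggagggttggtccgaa
Skp2, upstream start: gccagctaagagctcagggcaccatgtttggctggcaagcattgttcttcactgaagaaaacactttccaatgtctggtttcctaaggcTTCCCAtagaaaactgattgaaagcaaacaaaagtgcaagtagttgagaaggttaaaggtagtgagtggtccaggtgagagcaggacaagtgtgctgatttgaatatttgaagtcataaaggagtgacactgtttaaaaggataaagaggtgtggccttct
Ptcra: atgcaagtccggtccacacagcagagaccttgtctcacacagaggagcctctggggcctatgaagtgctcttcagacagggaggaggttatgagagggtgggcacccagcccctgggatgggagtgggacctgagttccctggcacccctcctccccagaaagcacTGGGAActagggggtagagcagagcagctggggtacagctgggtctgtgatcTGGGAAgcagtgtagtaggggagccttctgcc
Each Skp2 window held 1 match on the opposite strand, beginning 119 bases before the downstream start and 161 bases before the upstream one. The Ptcra window held 2 matches on its own strand, beginning 84 and 32 bases before the start. Among the members only Nedd4 had another match, 243 bases before 1 of its 2 starts, so 3 of 13 windows (23.1%) held the letters. Of all 32851 windows, which include the chromosome left out for the members, 21.6% did, so the members' share is close to the background. Of the 5 readout genes with a window, Ptcra alone held a match; those of Dtx1, Nrarp, Il2ra and Notch3 held none. A match is a run of letters and not a measured binding site.

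Fbxw7 transcript did not differ between the groups beyond the spread of the arrays. Its lead probe set, the one with the highest mean, read 8.46 and 8.17 with ethanol and 8.41 and 8.21 with 4OHT. In both groups 1 array was high and 1 low, so the ranges covered each other almost entirely. The log2 change, 4OHT minus ethanol, was -0.0015 ± 0.13 (limma SE, n = 2 each, adjusted p = 0.996), and its 95% interval ran from -0.34 to 0.33. A fold between 0.792 and 1.26 is therefore within that interval. The second Fbxw7 probe set, 1424986_s_at, read 8.25 and 8.30 with ethanol and 8.25 and 7.98 with 4OHT. Only the second 4OHT array stood lower there, and the change was -0.16 (adjusted p = 0.505 in the fit over all 20967 tested probe sets). RefSeq gives Fbxw7 3 start sites, and the sources used here do not say which of its transcripts each probe set reads. Genes like Fbxw7 were searched by the smallest distance between log2 values centred over the 4 arrays. Tested genes with provisional symbols, such as clone names, were left out of the search. The most alike of the rest were Atf7 (0.0263), Clock (0.0339) and Polk (0.0361), each with a limma adjusted p of at least 0.965.

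Skp2 was lower in the mean with 4OHT on 5 of its 6 probe sets, but no probe set passed the test. The lead probe set read 10.73 and 10.33 with ethanol and 10.44 and 10.21 with 4OHT. The first ethanol array was the highest and the second lay between the 4OHT arrays, so the groups overlapped. The change was -0.20 ± 0.16 (SE, n = 2 each, limma adjusted p = 0.474; 95% interval -0.61 to 0.20). Without ethanol replicate 1 it was -0.0055 (adjusted p = 0.987), and without ethanol replicate 2 it was -0.40 (adjusted p = 0.205). The same array was the highest on all 5 of these Skp2 probe sets, whose changes lay between -0.30 and -0.18. Of these, 1460247_a_at had groups that did not overlap, at 10.05 and 9.76 against 9.68 and 9.55 (adjusted p = 0.261). The sixth and dimmest, 1425072_at, went the other way: its ethanol arrays read 6.67 and 6.59 and its 4OHT arrays 6.72 and 6.83 (change 0.14, adjusted p = 0.463). Probe sets of 1 gene share their samples and are not replicates, so 5 alike are not 5 measurements of the treatment.

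The HECT-type ligase gene Itch was not called on any of its 4 probe sets, and all 4 had a change above 0. The lead probe set, the brightest by a wide margin, read 9.18 and 9.18 with ethanol and 9.05 and 9.52 with 4OHT. One 4OHT array lay below and the other above both ethanol arrays, and the change was 0.11 ± 0.16 (SE, n = 2 each, limma adjusted p = 0.725; 95% interval -0.30 to 0.51). The other 3 probe sets were dim, with means from 5.06 to 6.01 against a testing floor of 4.81. On 1431316_at the arrays read 4.74 and 4.64 against 5.67 and 5.17, a change of 0.73 ± 0.18 (adjusted p = 0.0889), which is the largest of any member probe set. On 1440582_at they read 4.83 and 5.11 against 5.34 and 5.35 (change 0.37, adjusted p = 0.164), and on 1459332_at 5.62 and 5.90 against 6.62 and 5.90 (change 0.50, adjusted p = 0.309). On the last of these the groups touched, and the first 4OHT array alone carried the difference. With the mean of all 4 probe sets in place of the lead one, Itch had a change of 0.43 and an adjusted p of 0.0664. The sources used here do not say where these probe sets lie in the transcript.

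Nedd4, the founding member of the NEDD4 family to which Itch belongs, read higher with 4OHT on each of its 3 probe sets, and none passed. The lead probe set read 11.36 and 11.04 with ethanol and 11.51 and 11.43 with 4OHT, so the groups lay apart, by less than the gap between the ethanol arrays. The change was 0.27 ± 0.13 (SE, n = 2 each, limma adjusted p = 0.26; 95% interval -0.052 to 0.59). It was 0.43 without ethanol replicate 1 and 0.11 without ethanol replicate 2 (adjusted p = 0.16 and 0.643). On 1450431_a_at the ethanol arrays lay close together, at 10.53 and 10.56, below 10.79 and 10.78 with 4OHT (change 0.24, adjusted p = 0.204). The third, 1421955_a_at, read 9.99 and 9.51 against 10.19 and 10.05 (change 0.37, adjusted p = 0.286).

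Its close relative Nedd4l had a change near 0 on its brightest probe set and larger ones on dimmer probe sets, none of them called. The lead probe set read 9.56 and 9.58 with ethanol and 9.54 and 9.67 with 4OHT, and the groups overlapped (change 0.035 ± 0.092, n = 2 each, limma adjusted p = 0.843; 95% interval -0.19 to 0.26). The dimmer 1457374_at read 6.62 and 6.72 against 7.31 and 6.77 (change 0.37, adjusted p = 0.311), with the first 4OHT array well above the rest. On 1437400_at the values were 4.49 and 4.89 against 5.17 and 5.28 (change 0.54, adjusted p = 0.122), again close to the testing floor. The other 3 Nedd4l probe sets had means under that floor and were not tested; their changes lay between -0.13 and 0.24.

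Numb and its paralogue Numbl, which encode endocytic adaptors that antagonise Notch, were not called. Numb read 8.19 and 8.16 with ethanol and 8.42 and 8.25 with 4OHT. Both 4OHT arrays were higher, by a change of 0.16 ± 0.096 (SE, n = 2 each, limma adjusted p = 0.354; 95% interval -0.080 to 0.40). The change was 0.079 without 4OHT replicate 1 and 0.24 without 4OHT replicate 2 (adjusted p = 0.743 and 0.324). Its second probe set, 1425368_a_at, read 6.10 and 6.04 against 6.29 and 6.02, with overlapping groups (change 0.085, adjusted p = 0.73). Numbl, with 1 probe set, read 6.71 and 6.95 with ethanol and 6.77 and 6.89 with 4OHT. Both 4OHT arrays lay between the ethanol arrays, and the change was -0.0018 ± 0.11 (adjusted p = 0.995; 95% interval -0.29 to 0.29).

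**Figure D2:**
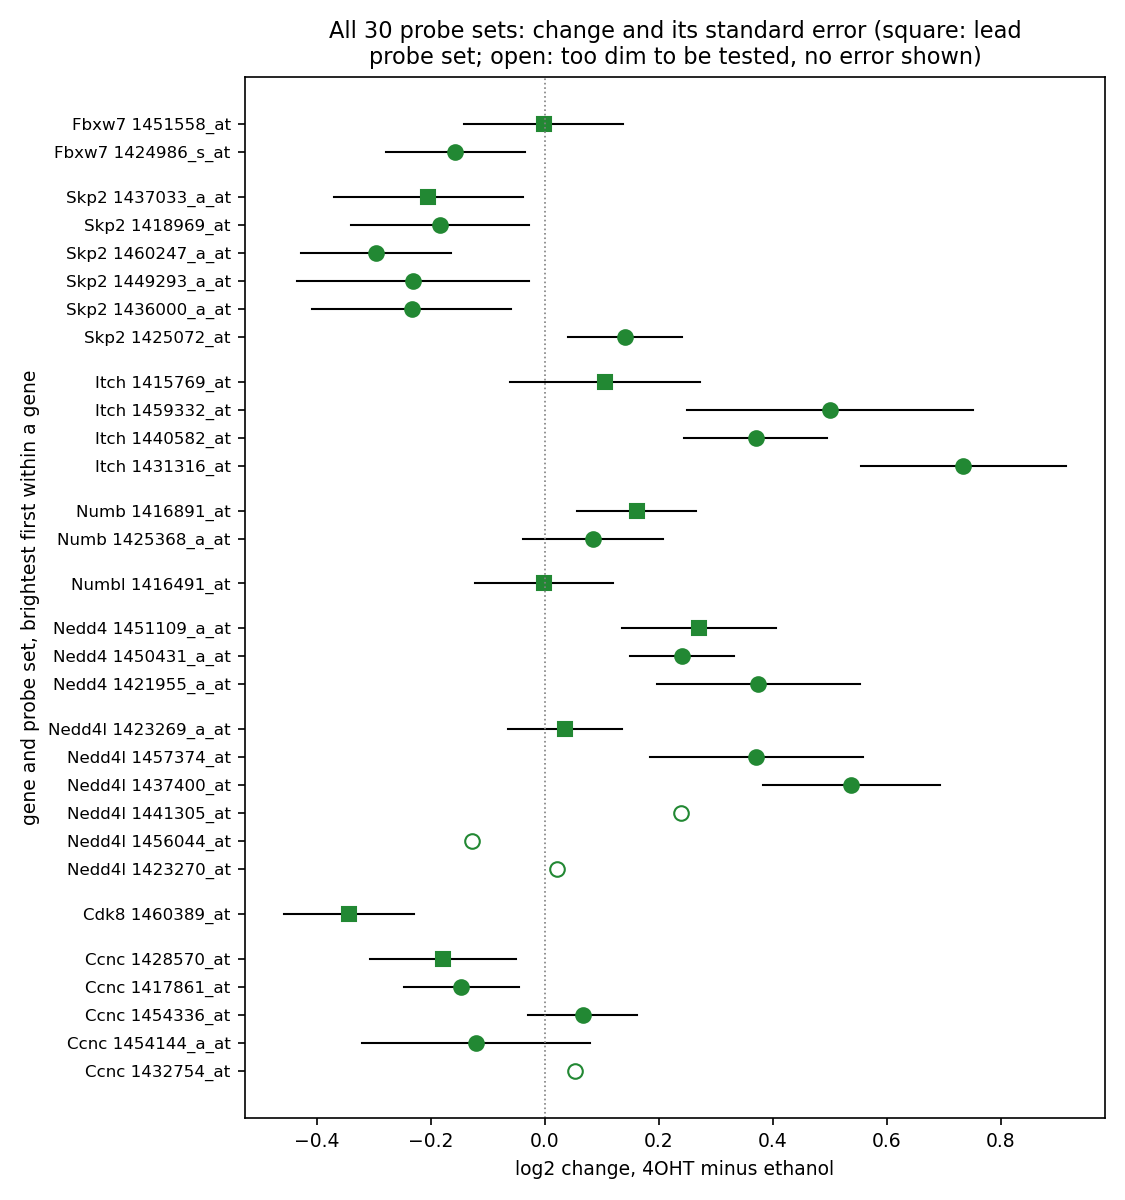
Log2 change, 4OHT minus ethanol, of all 30 probe sets of the 9 genes, with the limma standard error for the 26 that were tested; squares are lead probe sets and open circles were too dim to be tested. The changes run from -0.34 (Cdk8) to 0.73 (a dim Itch probe set), and no probe set was called.

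Over all 26 tested probe sets of the 9 genes, none was called by limma, and 5 had an unadjusted p under 0.05. Of all 20967 tested probe sets, 4.02% were called and 22.7% had an unadjusted p under 0.05. The changes were above 0 on 14 and below 0 on 12. The groups did not overlap on 11 probe sets with higher and 3 with lower values in 4OHT; of all tested probe sets 26.4% were apart and higher, 27.8% apart and lower, and 54.3% either. All tested probe sets of Itch, Nedd4, Nedd4l and Numb lay above 0, and those of Fbxw7, Numbl and Cdk8 below it, while Skp2 and Ccnc had both.

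Cdk8, the kinase that marks the Notch intracellular domain for FBXW7, had the smallest p of the members. Its 1 probe set read 10.62 and 10.39 with ethanol and 10.16 and 10.17 with 4OHT. Both 4OHT arrays were lower and lay almost on each other, and the ethanol arrays were further apart from each other. The change was -0.34 ± 0.11 (SE, n = 2 each, 1.27-fold, limma adjusted p = 0.12), with a 95% interval from -0.61 to -0.076. Before adjustment limma's p was 0.0207, and 1999 of the 11581 tested genes had a smaller one. Without ethanol replicate 1 the change was -0.23 (adjusted p = 0.355), and without ethanol replicate 2 it was -0.46 (adjusted p = 0.115). By the same distance and search as above, the genes most like Cdk8 over the 4 arrays were Polr3g (0.00999), Trnt1 (0.0273) and Thoc3 (0.0277). Their changes were -0.35, -0.34 and -0.33.

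Ccnc encodes cyclin C, the partner that CDK8 needs. Its lead probe set read 7.41 and 7.13 with ethanol and 7.14 and 7.05 with 4OHT. The first ethanol array stood above the other 3, the groups overlapped, and the change was -0.18 ± 0.12 (SE, n = 2 each, limma adjusted p = 0.409; 95% interval -0.48 to 0.13). Without ethanol replicate 1 it was -0.038 (adjusted p = 0.893), without ethanol replicate 2 -0.32 (adjusted p = 0.223), and with the mean of its probe sets -0.066 (adjusted p = 0.767). On 1417861_at the arrays read 6.68 and 6.56 against 6.43 and 6.51, apart by a small gap (change -0.15, adjusted p = 0.449). The other 2 tested probe sets had changes of -0.12 and 0.066, and the fifth was under the testing floor.

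**Figure D3:**
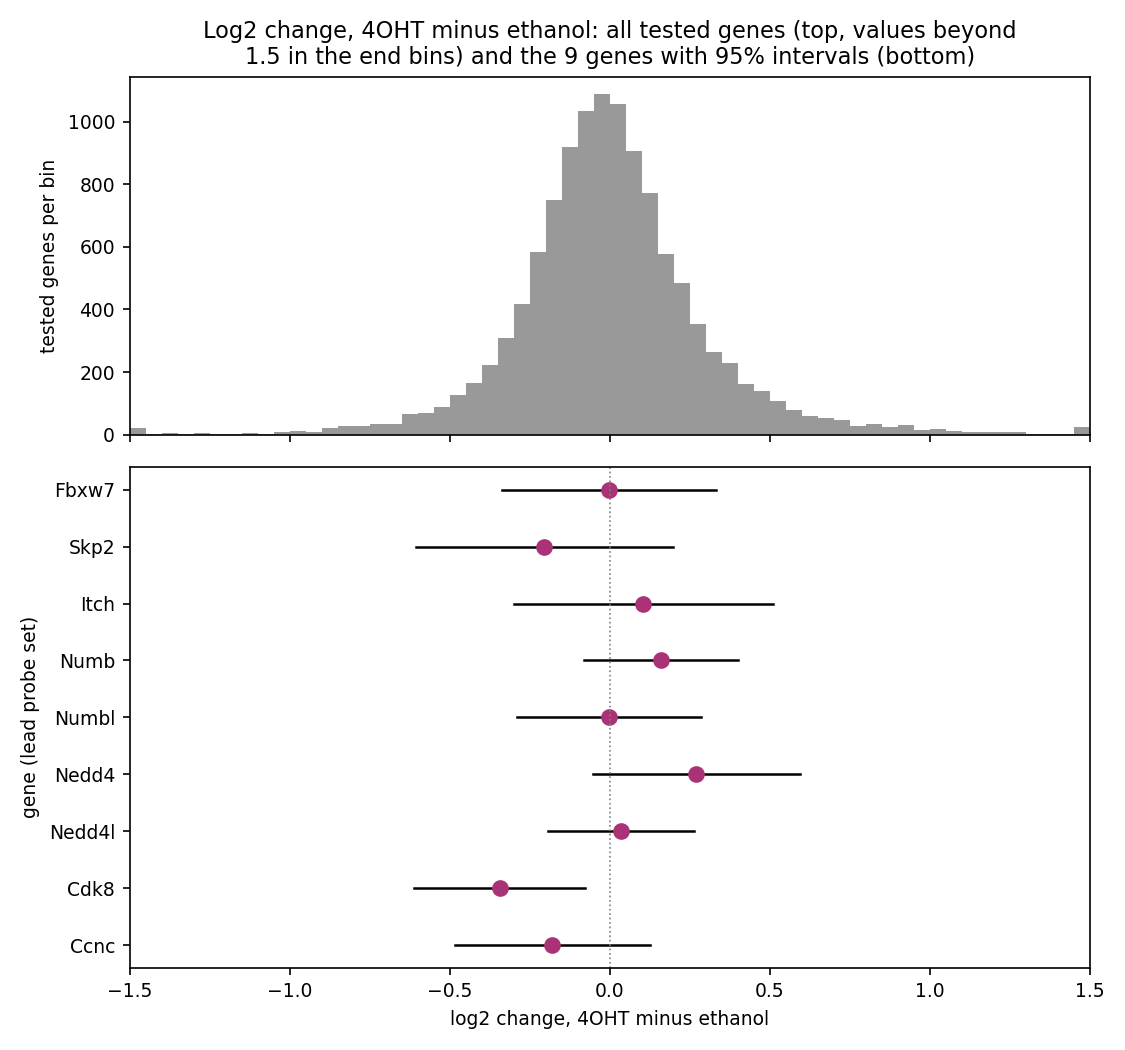
Top, number of tested genes in each 0.05-wide bin of log2 change, 4OHT minus ethanol, with values beyond 1.5 placed in the end bins; bottom, the change of the 9 genes with its 95% interval from limma. The members lie between -0.34 and 0.27, and the interval of Cdk8 alone leaves out 0 before adjustment.

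In the Mediator kinase module Med13, Cdk19, Med12 and Med13l had changes above 0, Cdk8, Ccnc and Med12l had changes below 0, and none was called. The module joins CDK8 or its paralogue CDK19 and cyclin C to MED12 and MED13 or their paralogues, and docks on Mediator. Of the 5 partner genes of Cdk8 and Ccnc, all tested, 4 had a change above 0 and an unadjusted p under 0.05. Over all tested genes 25.5% had such a p, in either direction. The median change of the 5 was 0.44, against -0.012 over all tested genes. Med13 came closest: its ethanol arrays read 9.25 and 9.38 and its 4OHT arrays 9.79 and 9.72 (change 0.44 ± 0.093, n = 2 each, limma adjusted p = 0.0521). All 4 of its tested probe sets had a change above 0, from 0.042 to 0.44, and with the mean of its probe sets the change was 0.24 (adjusted p = 0.156). The other subunits are named after their values were seen. Cdk19 read 9.38 and 9.58 against 9.83 and 10.04 (change 0.46, adjusted p = 0.0846), and its second probe set had a change of 0.49. Med12 had a change of 0.41 (adjusted p = 0.119), Med13l of 0.46 (adjusted p = 0.151) and Med12l of -0.18 (adjusted p = 0.411). The groups did not overlap for Med13, Cdk19, Med12 and Med13l, and they did for Med12l. Of all tested genes 56.9% had groups apart, and 26.7% were apart and higher with 4OHT. Med13 and Cdk19 were called with an intensity trend (adjusted p = 0.0277 and 0.0483), as they were with a robust prior added, and Med13 also when genes under the 60th percentile were left out (adjusted p = 0.0346). Over all alternatives the adjusted p ran from 0.0167 to 0.205 for Med13 and from 0.0111 to 0.267 for Cdk19, and no fit without 1 array called either. Without ethanol replicate 1 the changes of Med12 and Med13l were 0.27 and 0.24 (adjusted p = 0.34 and 0.361). Whether the kinase module differed from Cdk8 itself was not tested. The 26 core Mediator subunits lay around 0, with a median change of -0.015, none called and 2 at an unadjusted p under 0.05; the nearest was Med29 (-0.26, adjusted p = 0.134).

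Genes that work with NUMB in endocytosis included 1 rise and 1 fall among 23 tested (8.7%, against 7.47% of all genes). Aak1, the kinase that phosphorylates the AP2 clathrin adaptor, rose 1.53-fold, from 10.18 and 10.23 to 10.79 and 10.84 (change 0.61 ± 0.085, n = 2 each, limma adjusted p = 0.0227). All 4 of its tested probe sets were higher with groups apart, by 0.58 to 0.83. Ap2b1, the beta subunit of the AP2 adaptor, fell 1.48-fold, from 8.96 and 8.94 to 8.37 and 8.40 (change -0.56 ± 0.083, adjusted p = 0.0262). Its 2 other probe sets were also lower, by 0.26 and 0.16 in size, and the call was lost with the mean of its probe sets (change -0.33, adjusted p = 0.0705). Both genes lost their call in each fit without 1 array (adjusted p from 0.0742 to 0.117 for Aak1 and from 0.0875 to 0.134 for Ap2b1), and such fits have 1 residual degree of freedom.

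Calls in the ligase families the members belong to are set beside all tested genes, of which 7.47% were called. An unadjusted p under 0.05 was found for 25.5% of all tested genes. Of 10 tested NEDD4 family ligases and adaptors 1 was called (10%). It was Sh3kbp1, which encodes the CBL-binding adaptor CIN85, so none of the ligase genes in that list was called. Sh3kbp1 rose 1.44-fold, from 11.63 and 11.55 to 12.09 and 12.14 (change 0.53 ± 0.087, n = 2 each, limma adjusted p = 0.0305). All 4 of its probe sets were higher, by 0.53 to 0.74. The limma fit over all tested probe sets did not call the lead one (adjusted p = 0.0501) or the third brightest (adjusted p = 0.092). Sh3kbp1 was called there on its other probe sets (adjusted p = 0.044 and 0.0295). Without any 1 of the arrays its adjusted p lay between 0.107 and 0.136. Of 16 tested genes for the SCF core and SKP2 partners none was called and 1 had an unadjusted p under 0.05; it was Cdc34, the ubiquitin-conjugating enzyme of SCF ligases (-0.36, adjusted p = 0.0821). Cdc34 was called with an intensity trend (adjusted p = 0.0378, and from 0.0318 to 0.26 over all alternatives). Of 17 other ligase genes linked to Notch, Dtx1 alone was called (5.88%). Of 10 deubiquitinase genes none was called and 3 had an unadjusted p under 0.05, with Usp36, which protects MYC, nearest (-0.36, adjusted p = 0.0857).

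Genes for proteins that FBXW7 and SKP2 degrade were compared as well. Of 21 tested genes for FBXW7 substrates and the kinases that prime them, 3 fell and 1 rose (19%, against 7.47% of all genes). The falls were in Notch3 (-1.68), Notch1 (-0.86) and Myc (-0.74), each known as a Notch target in T cells. Notch3 is also in the list of standard Notch targets above, so its fall is counted in both lists. The rise was in Cdk2, the cyclin E partner, from 10.06 and 10.09 to 10.48 and 10.48 (change 0.40 ± 0.083, n = 2 each, limma adjusted p = 0.049). That call lies at the threshold and was lost with median centring (adjusted p = 0.0567), with the mean of its probe sets (change 0.22, adjusted p = 0.187), when dim genes were kept in (adjusted p = 0.0709) and without any 1 array (adjusted p from 0.132 to 0.186). Myc too lost its call without any 1 array (adjusted p from 0.0612 to 0.168), Notch1 without any array other than ethanol replicate 1 (highest adjusted p = 0.134) and Notch3 without either 4OHT array (highest adjusted p = 0.114). In the limma fit over all tested probe sets neither Cdk2 (adjusted p = 0.0766) nor Myc (adjusted p = 0.0525) was called. None of 8 tested SKP2 substrate genes was called, and 3 had an unadjusted p under 0.05. The nearest was Rbl2, which encodes the pocket protein p130, whose ethanol arrays read 8.08 and 8.48 and whose 4OHT arrays read 8.85 and 8.97 (change 0.63, adjusted p = 0.0659). Rbl2 was called with an intensity trend (adjusted p = 0.0418), with a robust prior added to it (0.038) and with the mean of its probe sets (0.0374), and its adjusted p ran from 0.00385 to 0.223 over all alternatives. The limma fit over all tested probe sets called the second Rbl2 probe set higher (change 0.67, adjusted p = 0.0474) but not the lead one (adjusted p = 0.0883). All of these values are transcript levels, and protein turnover was not measured.

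**Figure D4:**
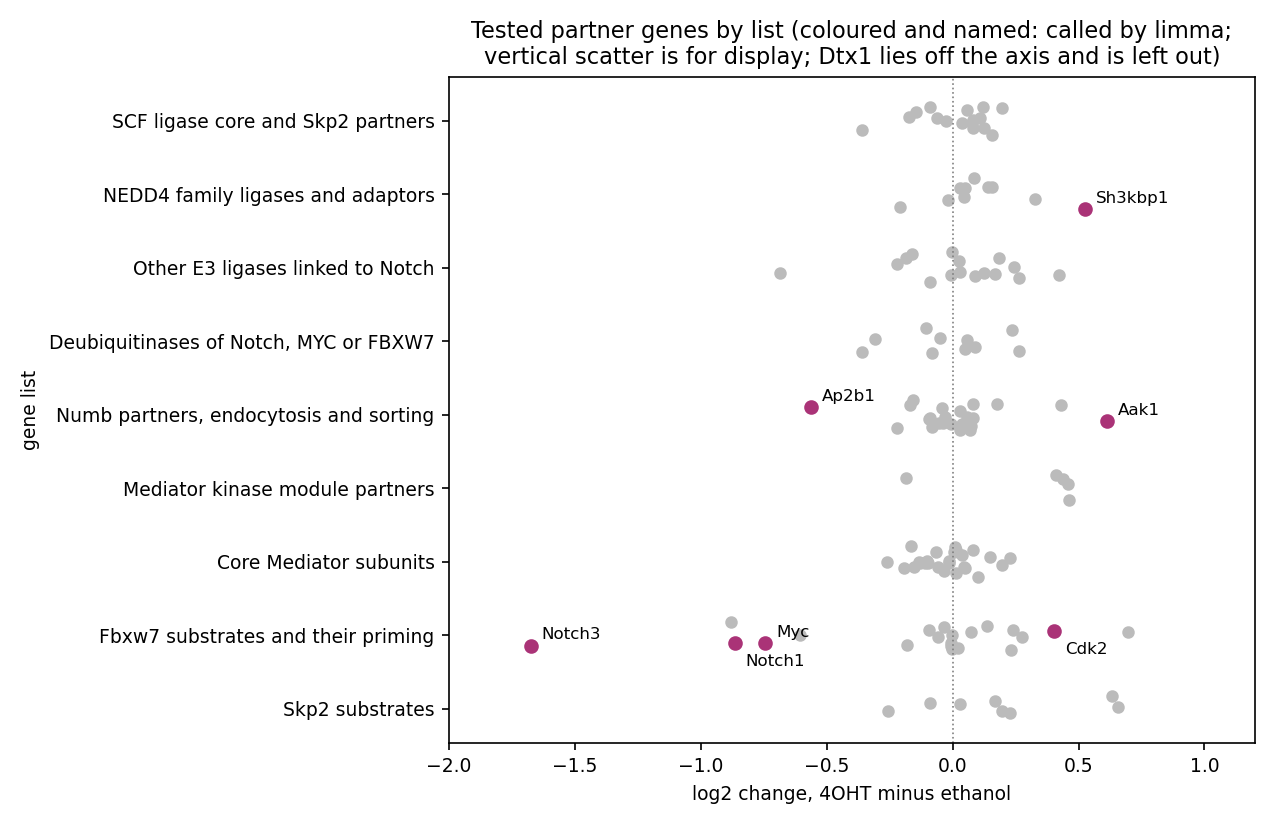
Log2 change, 4OHT minus ethanol, of the tested partner genes in 9 lists, 1 point per gene, with genes called by limma coloured and named; Dtx1 (-3.41) is left out because it lies off the axis. The 4 genes named in the substrate list run from -1.68 (Notch3) to 0.40 (Cdk2), and 4 of 5 Mediator kinase module genes lie between 0.41 and 0.46 without being called.

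The arrays as a whole carried T-cell transcripts. Of 13 T-cell markers 11 had a probe set naming 1 gene, with lead values from 4.39 to 13.2, and Cd5 was the only one of these under the testing floor. Of the 10 tested T-cell markers 3 were called (30%, against 7.47% of all genes): Cd8a and Cd247 rose, by 0.83 and 0.68 on the log2 scale, and Cd3g fell, by 0.57 (limma adjusted p = 0.0347, 0.0347 and 0.0356). B-cell markers had lead values from 3.35 to 5.42, NK-cell markers from 3.30 to 4.85, myeloid markers from 3.72 to 6.37 and erythroid markers from 3.44 to 6.09. Stromal or epithelial markers ran from 2.98 to 8.65, with Pdgfrb the brightest; the 3 tested ones had changes below 0 (median -0.23), none called and 1 at an unadjusted p under 0.05. Of the other lineage markers Pecam1 alone was called, and it was higher with 4OHT (7.71 against 8.64 in the means, limma adjusted p = 0.0165). The lead values of the 4 endothelial markers summed to 20.2 on each ethanol array and 21.0 on each 4OHT array, with Cdh5 and Tek under the testing floor. The difference in that sum lay in Pecam1 (0.93), while Kdr, Cdh5 and Tek differed by -0.068, -0.043 and 0.0070. The part of any of these markers in the values of the 9 genes was not tested. Arrays of 1 group correlated at 0.995 and arrays of different groups at 0.983 to 0.987 (Pearson's r across tested genes, which are not independent).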

How the data were processed

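The deposited values are log2 expression per probe set, which per the submitters' processing notes the authors computed with RMA; the sources used here do not give its version. RMA equalises the arrays' signal distributions and gives no detection call, so changes near background can be understated, and the number of arrays limits the precision. Probe sets were named through the platform annotation, using those with exactly 1 gene. A gene was represented by its probe set with the highest mean over 4 arrays, and dim genes, those below the 40th percentile of named probe sets (a mean of 4.81), were not tested, leaving 11581. limma 3.58.1 in R 4.3.3 (lmFit, eBayes, no block) compared 4OHT with ethanol, with Benjamini-Hochberg adjustment over all tested genes; a separate fit took all tested probe sets. The fit was tested on simulated data.

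The 9 genes and the lists of partners were chosen with earlier results of these data known, and no list was tested as a set. Genes named beside the members were, for each list, up to 4 called genes or else the 1 with the smallest p, and exceptions are marked. The alternatives were other filters, quantile or median centring, a replicate block, each array left out, the mean of or all probe sets, and an intensity trend. Their use on member probe sets and on partner genes was added after seeing the data. Promoter windows are from RefSeq, assembly GRCm38.p6.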

Additional observations from a re-analysis of the deposited data

How the results depend on the processing

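No member was called higher under any alternative run. 1 was called lower in a single setting, with the replicate number as a block, which rests on 1 residual degree of freedom: Cdk8 (change -0.34, adjusted p = 0.0489). With that block 2 member probe sets were called higher, 1431316_at of Itch (adjusted p = 0.00848) and 1437400_at of Nedd4l (adjusted p = 0.0212), and the counts over all genes were 1104 higher and 1031 lower, against 452 and 413 without it. Among the partner genes named without a call, the block called Med13 (adjusted p = 0.0167), Cdk19 (0.0111), Med12 (0.0192), Med13l (0.0207), Rbl2 (0.00385), Cdc34 (0.0318) and Usp36 (0.0326), and it did not call Med12l and Med29. The samples share only a number: deviations of same-numbered arrays correlated at 0.343 across tested genes, and with 2 pairs this does not show that the numbers pair the cultures. The counts were 679 higher and 666 lower with an intensity trend and a robust prior, and 663 higher and 636 lower with the trend alone. Leaving out 1 array gave 7 to 126 higher and 12 to 66 lower genes, and no member was called in these fits. The sign turned, without a call, for Fbxw7, which ran from -0.15 (without ethanol replicate 2) to 0.14 (without ethanol replicate 1), with 0.095 without 4OHT replicate 2. It also turned for Numbl, from -0.12 (without ethanol replicate 1) to 0.12 (without ethanol replicate 2), with 0.060 without 4OHT replicate 1. It did so for Itch, from -0.13 to 0.34, and Nedd4l, from -0.031 to 0.10 (each without 4OHT replicate 2 and without 4OHT replicate 1); the cause was not tested. No other member changed sign.

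With 2 arrays a group, the 95% interval of a member was narrowest for Nedd4l, at -0.19 to 0.26, and widest for Itch, at -0.30 to 0.51. These intervals are not adjusted for the number of genes tested, and that of Cdk8 leaves out 0 without a call. A missing call therefore does not show that a transcript did not differ.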
